A study of Mus musculus with 6 samples.

Results

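The hypertrophic zone of the mouse growth plate was compared with its proliferative zone across all 690 mouse microRNAs (miRNAs) of an Agilent miRNA array. Of the 6 arrays of the study, the 2 assigned to the hypertrophic and the 2 assigned to the proliferative zone entered the comparison, chosen by the zone recorded for each sample. The 2 prehypertrophic arrays contributed only to the estimate of the spread. Every array carried Cy3-labelled total RNA, 100 ng, from cartilage microdissected out of the femoral growth plate of C57BL/6 mice at 12 days of age, with material from 5 growth plates pooled. All groups thus shared strain, age and tissue and differed in the zone, and the labels name no treatment. The study describes its hybridizations as independent and held to 2 per zone by scarce material. The labels do not say which animals entered which pool, so the p-values measure the spread between these arrays. In bulk tissue of this kind, a change in the share of a cell type and a change in RNA per cell cannot be told apart.

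Growth plate chondrocytes first divide in columns in the proliferative zone and then stop dividing, enlarge and alter their matrix in the hypertrophic zone, which is mineralised and invaded by vessels at its lower edge. A miRNA is a short RNA that guides a silencing complex to messenger RNAs, and its target choice rests largely on the seed, bases 2 to 8 counted from its 5′ end. miRNAs with one seed can therefore share targets, while neighbouring miRNA hairpins are often cut from one primary transcript. Processing of miRNAs by Dicer is required for normal growth plate chondrocytes, and miR-140 is the best known miRNA of cartilage.

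Signals are given as log2 of the spot intensity after each array was scaled to the 75th percentile of the probes detected throughout, with a floor at 3.68 below which levels have no order. Signal above background by Feature Extraction's flag, on each array of the zone, was found for 201 miRNAs in proliferative and 216 in hypertrophic cartilage. Of these, 195 reached it in both, while 439 of the 690 did so on none of the 4 arrays. Tests covered the 226 miRNAs detected on both arrays of at least 1 zone of the study, 4 of them through the prehypertrophic zone alone. The chondrocyte miRNA miR-140 stood well above background on all 4 arrays, at 11.28 and 10.57 in the proliferative and 9.96 and 10.37 in the hypertrophic zone. Across tested miRNAs, log2 signals correlated at 0.955 between the proliferative arrays, at 0.975 between the hypertrophic arrays and at 0.902 to 0.952 between arrays of different zones, as a description over miRNAs that share their arrays. All arrays lay on 1 slide. Both hypertrophic arrays and the first proliferative array lay in row 1, and the second proliferative array in row 2. Title numbers put the first proliferative array with the second hypertrophic array (13 and 15) and the second proliferative with the first hypertrophic array (16 and 18), without naming these runs as batches.

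In total, 33 of 226 miRNAs (14.6%) passed the limma test at an adjusted p below 0.05. The hypertrophic zone had 13 at higher levels (5.75%) and 20 at lower levels (8.85%). Among calls well above background on all 4 arrays, 8 rises ranged from 1.92-fold to 4.94-fold and 17 falls from 1.82-fold to 3.43-fold. The arrays of the zones did not overlap for any of the 33, nor for 46.9% of all tested miRNAs (19.9% with the hypertrophic zone higher, 27% with it lower). The median difference of all tested miRNAs was -0.0017 log2 units, with 112 positive and 114 negative. The higher calls were miR-451, miR-322, miR-181a, miR-181a-1*, miR-2132, miR-181b, miR-21, miR-503, miR-126-3p, miR-22, miR-2137, miR-193b and miR-2138. The lower calls were 8 miRNAs of the imprinted Dlk1-Dio3 region (miR-127, miR-329, miR-434-3p, miR-379, miR-299*, miR-154, miR-337-5p and miR-382), 4 of the let-7 family (let-7e, let-7b, let-7c and let-7a), miR-125a-5p, miR-99b, miR-15b, miR-130a, miR-103, miR-196a, miR-210 and miR-675-3p. In the plot of zone means, the calls lay on both sides of the diagonal over a wide range of levels.

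**Figure D1:**
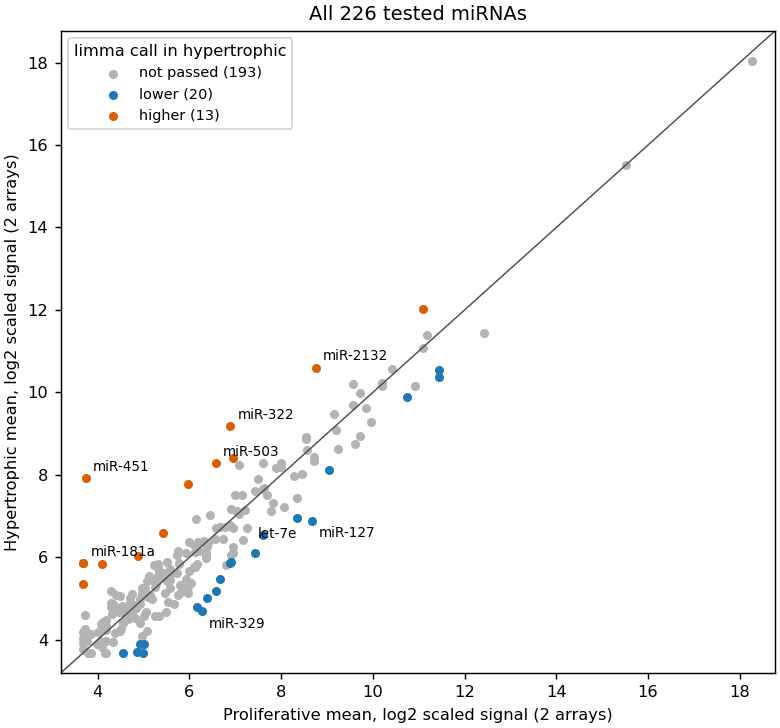
Mean log2 scaled signal of each of the 226 tested miRNAs over the 2 hypertrophic arrays (vertical axis) against the 2 proliferative arrays (horizontal axis). Points above the diagonal line are higher in the hypertrophic zone: 13 passed limma above the line (orange) and 20 below it (blue), and miR-451 lies farthest above it.

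The mature sequences of the miRNAs that led the rises are shown first, because 2 pairs among them share or nearly share a seed. They come from RefSeq (GRCm38.p6), which held 151 of the 226 tested and 31 of the 33 called miRNAs (all but miR-2132 and miR-2138) under the array's name or its current name. Current names were assigned from knowledge of miRBase and not checked against a release. The seed is in capitals.
miR-322: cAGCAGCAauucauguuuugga
miR-503: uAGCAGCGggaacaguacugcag
miR-181a: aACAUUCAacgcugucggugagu
miR-181b: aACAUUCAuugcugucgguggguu
miR-181a-1*: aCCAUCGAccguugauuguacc
miR-451: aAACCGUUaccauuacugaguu
miR-126-3p: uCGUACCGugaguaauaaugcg
miR-22: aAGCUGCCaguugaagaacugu
miR-21: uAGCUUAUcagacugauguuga
miR-193b: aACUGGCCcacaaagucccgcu
miR-181a and miR-181b carried the same seed, ACAUUCA. The seeds of miR-322 and miR-503 were AGCAGCA and AGCAGCG.

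miR-322, named miR-424 in human, and its neighbour miR-503 both rose. Their hairpins lie on the minus strand of the X chromosome, at chrX:53054255-53054349 and chrX:53053984-53054054, and their family is known for restraining cell cycle genes. The level of miR-322 was 7.18 and 6.59 on the proliferative arrays and 9.04 and 9.34 on the hypertrophic arrays. The lower hypertrophic array was thus well above the higher proliferative one, a difference of 2.30 log2 units (SE 0.28, limma adjusted p = 4.40e-04), which was 2.16 within the first run of title numbers and 2.45 within the second. For miR-503 the proliferative arrays read 6.67 and 6.49 and the hypertrophic arrays 8.09 and 8.46, again without overlap (3.24-fold higher, SE of log2 0.26, limma adjusted p = 0.00169). Second probes gave differences of 2.42 for miR-322 and 1.69 for miR-503, the latter undetected on the proliferative arrays by that probe. Both calls held in 20 of 23 other settings. Of the 7 tested miRNAs from this cluster, 2 rose and 5 did not pass, with a list median of 0.30, where 5.75% of all tested miRNAs rose. The passenger strand miR-322* was among those that did not pass, at 0.67 (adjusted p = 0.183 by limma).

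The miR-181 family, studied in immune and vascular cells among others, also rose. miR-181a and miR-181b are encoded together at 2 places, on chromosome 1 (chr1:137966455-137966541 and chr1:137966639-137966718) and on chromosome 2 (chr2:38852735-38852810 and chr2:38853830-38853918), so the array does not tell which copy gave the signal. The passenger strand miR-181a-1* comes from the chromosome 1 hairpin. miR-181b was measured above background on all 4 arrays, at 5.77 and 6.16 in the proliferative and 7.66 and 7.91 in the hypertrophic zone. That is a 3.53-fold rise (SE of log2 0.30, limma adjusted p = 0.00204), or 1.82 log2 units, against 1.27 by a second probe. miR-181a lay at the floor on both proliferative arrays and at 5.58 and 6.14 on the hypertrophic arrays, which makes it at least 3.89-fold higher (limma adjusted p = 4.40e-04). A second probe of miR-181a, undetected on the proliferative arrays, differed by 0.74, against 2.18 by the probe used. miR-181a-1* was likewise at the floor in the proliferative zone and at 5.83 and 5.91 in the hypertrophic zone, at least 3.92-fold higher (limma adjusted p = 4.40e-04). Such a bound sets the mean of the brighter zone against, on each dim array, the highest of the floor, the lowest detected signal and the probe's own signal. Because both proliferative arrays lie at the floor, the spread there is unmeasured and these p-values leave it out, which also holds for miR-126-3p. miR-181d has the same seed as miR-181a but did not pass, at 0.18 (limma adjusted p = 0.797), and its difference was -0.03 without the first proliferative array and -0.02 with normexp background correction.

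miR-451, which accumulates in red cell precursors, had the largest rise of the tested miRNAs. Its levels were 3.81 and 3.68 on the proliferative arrays, of which the first alone was well above background and the second is the floor, and 7.84 and 8.01 on the hypertrophic arrays (limma adjusted p = 9.57e-07). It lies on chromosome 11 at chr11:78073170-78073241, and it passed in 22 of 22 other settings. With the undetected array set at the floor the ratio of the geometric means was 18.1, a size that depends on where the floor lies. The floor also cuts the spread between the proliferative arrays, and the p-value leaves that out, which holds for miR-21 as well. miR-126-3p, processed from an intron of the endothelial gene Egfl7 on chromosome 2 (chr2:26591357-26591429), was at the floor on both proliferative arrays and at 5.14 and 5.58 in the hypertrophic zone, at least 2.75-fold higher (limma adjusted p = 0.00169). It was tested through the hypertrophic arrays alone, all 4 other arrays of the fit being at the floor with no measured spread, so its p-value supports no more than that detection. The myeloid miR-223 was not well above background on a proliferative array and stood at 4.30 and 4.92 on the hypertrophic arrays, at least 1.61-fold higher without passing (limma adjusted p = 0.0591). Its difference was -0.06 with normexp. Of the 9 blood and marrow markers, 5 (miR-144, miR-142-3p, miR-142-5p, miR-150 and miR-155) were well above background on none of the 4 arrays. Summed over the whole list with the floor as the least value, the scaled signal was 117 and 124 in the proliferative and 348 and 378 in the hypertrophic zone. Without miR-451 the sums were 103 and 112 against 118 and 120. For the endothelial pair the sums were 25.7 on each proliferative array and 48 and 60.7 on the hypertrophic arrays, with miR-126-5p detected on none. The part of blood and vessel RNA in the other differences was not tested. Markers of smooth muscle and liver were well above background on none of the 4 arrays, as were 6 of 7 markers of striated muscle, 5 of 6 of nerve and 5 of 7 of epithelium.

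miR-22, a widely expressed miRNA on chromosome 11 (chr11:75463716-75463810), had levels of 7.09 and 6.83 in the proliferative and 8.33 and 8.47 in the hypertrophic zone, 2.71-fold higher (SE of log2 0.26, limma adjusted p = 0.00381). Its arrays were tight within each zone, and the differences in the runs were 1.38 and 1.496. miR-21, often raised in tissue injury and tumours, was at 4.503 and 3.68 in the proliferative zone, the first alone being well above background and the second the floor, and at 5.47 and 6.23 in the hypertrophic zone. It passed (limma adjusted p = 0.00628), with a ratio of the geometric means of 3.37 that takes the undetected array at the floor, and with an SD of 0.54 between the hypertrophic arrays. It passed in 10 of 22 other settings and had an adjusted p of 0.0517 without the second proliferative array. miR-193b, which has been studied in cartilage formation, was 2.23-fold higher (limma adjusted p = 0.0177), with 5.14 and 4.60 in the proliferative and 5.99 and 6.07 in the hypertrophic zone. miR-365, encoded beside it on chromosome 16 and again on chromosome 11 (chr11:79726400-79726511) so that its signal cannot be assigned to a copy, did not pass, at -0.29, and was 0.19 without scaling.

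miR-2132, miR-2137 and miR-2138 also passed. Their array names fall in a stretch from miR-2132 to miR-2138. That stretch is listed here as retired from later miRBase releases, without a release to check it against. RefSeq nevertheless held miR-2137 under its array name, with a hairpin on the X chromosome. It held neither miR-2132 nor miR-2138, so the RNA behind their probes is uncertain. miR-2132 read 8.54 and 8.98 on the proliferative and 10.66 and 10.54 on the hypertrophic arrays, 3.59-fold higher (SE of log2 0.27, limma adjusted p = 0.00139). miR-2137 was 2.24-fold and miR-2138 1.92-fold higher (limma adjusted p = 0.0177 and 0.0393). In log2 units the 3 rises were 1.84, 1.16 and 0.94, and second probes gave smaller differences of 1.34, 0.63 and 0.78. Of the 6 tested names between miR-2132 and miR-2138, 3 rose, 3 did not pass and none was negative, with a list median of 0.81. Among all tested miRNAs 5.75% rose. The second proliferative array was above the first for the 3 called names, as for miR-181b but not for miR-322 or miR-22. Over all tested miRNAs the first was above the second in 95 of 226. The rises that came nearest to the threshold without passing were miR-1966 (0.88, limma adjusted p = 0.0534), miR-223, miR-690 (1.15, 0.0591), miR-27a (0.78, 0.13) and miR-2133 (0.68, 0.153).

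**Figure D2:**
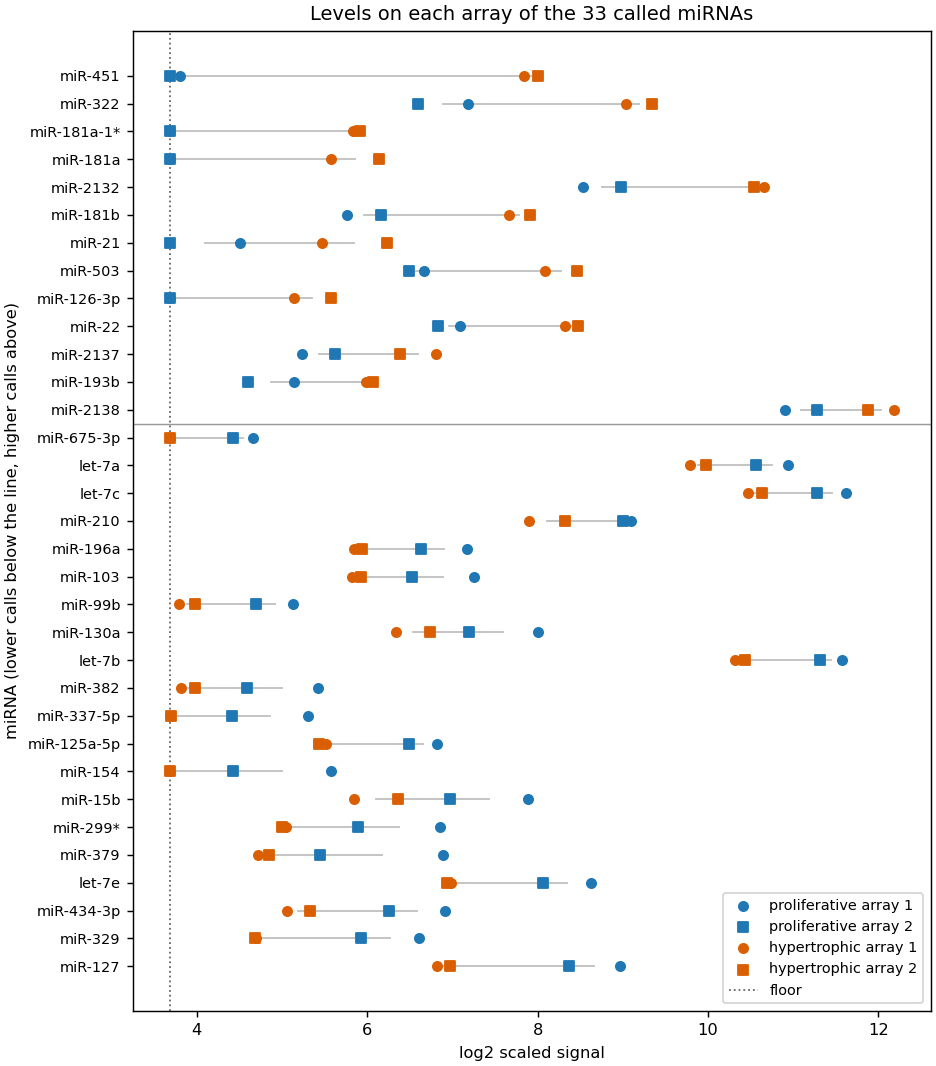
Log2 scaled signal (horizontal axis) of the 33 called miRNAs on the 2 proliferative arrays (blue) and the 2 hypertrophic arrays (orange), with circles for the first and squares for the second array of a zone, grey lines joining the zone means and a dotted line at the floor of 3.68. The zones do not overlap for any of the 33, and the first proliferative array (blue circle) lies above the second for all 20 falls.

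For the falls, sequences are shown for a group cut from one stretch of chromosome 17, for the other let-7 calls, for miRNAs that share a seed or nearly all bases with another tested miRNA, and for leading falls of the Dlk1-Dio3 region. Seeds are in capitals.
miR-99b: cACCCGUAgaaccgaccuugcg
let-7e: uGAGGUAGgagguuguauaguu
miR-125a-5p: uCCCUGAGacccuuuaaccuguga
let-7b: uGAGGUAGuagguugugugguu
let-7c: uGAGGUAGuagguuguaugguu
let-7a: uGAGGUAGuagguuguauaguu
miR-15b: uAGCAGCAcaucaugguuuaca
miR-103: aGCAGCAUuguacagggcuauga
miR-107: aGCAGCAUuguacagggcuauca
miR-127: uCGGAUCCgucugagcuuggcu
miR-329: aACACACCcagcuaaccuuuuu
miR-434-3p: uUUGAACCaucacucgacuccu
let-7a differed by 1 of 22 bases from let-7c and by 1 from let-7e, let-7b by 1 from let-7c, and miR-103 by 1 of 23 from miR-107. Signal from one such miRNA can reach the probe of the other. miR-15b carried AGCAGCA, the seed of miR-322, and fell.

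The imprinted Dlk1-Dio3 region of chromosome 12 has maternally expressed RNAs that include a large series of miRNAs. Of 17 tested miRNAs in 2 lists drawn up for it, 8 fell and none rose, where 8.85% of all tested miRNAs fell and 5.75% rose. The lists do not hold every tested miRNA of the region. The 8 lie between chr12:109585789-109738498, a span of 152.7 kb. miR-127, made antisense to the retrotransposon-derived gene Rtl1, had the largest fall. It stood at 8.96 and 8.37 in the proliferative and at 6.81 and 6.97 in the hypertrophic zone, so that it fell by 1.78 log2 units (SE 0.28, limma adjusted p = 0.00169). Nearby, miR-434-3p went from 6.91 and 6.26 to 5.06 and 5.32 (fell by 1.39, limma adjusted p = 0.0118). miR-337-5p read 5.31 and 4.41 and then 3.68 and 3.70, the first hypertrophic value being the floor (limma adjusted p = 0.0316). The second group begins with miR-379 at chr12:109709060-109709125. In it miR-329 was at 6.61 and 5.93 in the proliferative zone and at 4.69 and 4.68 in the hypertrophic zone and fell by 1.59 (SE 0.29, limma adjusted p = 0.0039). miR-299* had 6.86 and 5.89 against 5.05 and 4.997 (fell by 1.35, limma adjusted p = 0.0178). miR-379 and miR-382 fell by 1.38 and 1.10, and miR-154, at the floor on both hypertrophic arrays, was at least 2.49-fold lower. miR-494, a neighbour of miR-329, did not pass (0.33, limma adjusted p = 0.558). In every one of the 8 the hypertrophic arrays lay close together while the first proliferative array exceeded the second. For miR-154 and miR-337-5p the hypertrophic arrays lie at or next to the floor, so their closeness is not measured. The differences of the 8 were -2.04 to -1.44 within the run of the first proliferative array and -1.55 to -0.73 within the other run. Without the first proliferative array they were -1.48 to -0.66 and 2 of the 8 passed. Medians were -0.503 for the 7 tested in the antisense Rtl1 region and -0.88 for the 10 tested from miR-379 to miR-154, both negative under all 4 other scalings.

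Of 5 tested miRNAs from a single locus on chromosome 17, 3 fell and 2 did not pass, where 8.85% of all tested miRNAs fell. Mir99b, Mirlet7e and Mir125a lie within 692 bases on the plus strand (chr17:17830188-17830879). The level of let-7e was 8.63 and 8.07 in the proliferative and 6.98 and 6.94 in the hypertrophic zone (fell by 1.39, SE 0.27, limma adjusted p = 0.00628). For miR-125a-5p the values were 6.82 and 6.497 and 5.52 and 5.44 (fell by 1.18, SE 0.26, limma adjusted p = 0.0118), and for miR-99b they were 5.13 and 4.70 and 3.79 and 3.98 (fell by 1.03, SE 0.27, limma adjusted p = 0.0298). The zones were apart for each, by more than the gap between arrays of one zone. Within the runs the 3 differences were -1.69 to -1.14 and -1.09 to -0.91. They were -1.11 to -0.81 without the first proliferative array, where let-7e alone of the 3 passed, and -0.91 to -0.54 without scaling, where none passed. The other arms of these hairpins did not pass. miR-99b* was at 0.08 and miR-125a-3p at 0.10 (limma adjusted p = 0.924 and 0.88), with overlapping zones, and their sign turned in some other settings. Relatives of miR-125a-5p and miR-99b encoded elsewhere did not pass either: miR-125b-5p, of the same seed as miR-125a-5p, was at -0.24 (0.24 without scaling), miR-100 at -0.69 and miR-99a at 0.41.

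The let-7 family, which restrains growth-promoting genes such as Hmga2 and Lin28, had negative differences for all 9 tested members. Of these, 4 fell and 5 did not pass, where 8.85% of all tested miRNAs fell. For 7 of the 9 both hypertrophic arrays lay below both proliferative arrays, against 27% of all tested miRNAs. let-7b stood at 11.57 and 11.32 in the proliferative and 10.31 and 10.44 in the hypertrophic zone, a fall of 1.07 log2 units (SE 0.25, limma adjusted p = 0.0177). let-7c and let-7a fell by 0.90 and 0.87 (limma adjusted p = 0.0393 and 0.0474). The others were miR-98 at -0.88, let-7d at -0.86, let-7f at -0.67, let-7g at -0.49 and let-7i at -0.38. The median was -0.87, against -0.0017 for all tested miRNAs, and -0.38 without scaling, where let-7i was 0.10. The calls held in 15 of 23 other settings for let-7b and in 7 of 23 for let-7a.

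**Figure D3:**
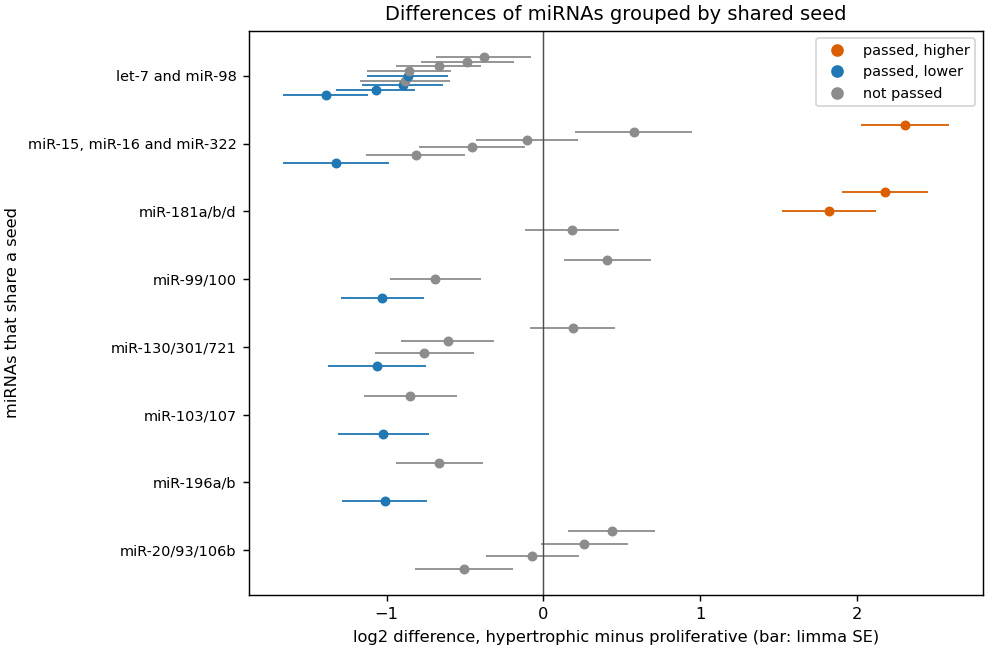
Log2 difference, hypertrophic minus proliferative, with its limma standard error, for tested miRNAs that share a seed (8 seeds shown). All 9 let-7 and miR-98 points lie below 0, while the family of miR-15 and miR-322 spreads from -1.33 to 2.30 and holds a call in each direction.

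One seed held calls in both directions. Among the 6 tested miRNAs with the seed AGCAGCA, miR-322 rose and miR-15b fell. The level of miR-15b, which is cut together with a copy of miR-16 from chromosome 3 (chr3:69009772-69009835) and represses cyclin genes, was 7.88 and 6.98 in the proliferative and 5.85 and 6.36 in the hypertrophic zone (fell by 1.33, SE 0.34, limma adjusted p = 0.0275). Within the runs the differences of miR-15b were -1.52 and -1.13, with a shared sign by construction, since its zones do not overlap. A second probe on the same arrays gave -1.48, and 11 of 23 other settings gave the same call. The remaining members did not pass: miR-497 at -0.81, miR-195 at -0.46, miR-16 at -0.10 and miR-15a at 0.57. Without scaling miR-195 was at 0.03 and miR-16 at 0.38, and with normexp miR-15a was at -0.02. Among the 151 tested miRNAs with a RefSeq sequence, 14 seeds were held by 2 or more. Of these, 1 held a higher call alone (the miR-181 seed), 6 held a lower call alone and 1 held both. Counted by miRNA and not by seed, 5.75% of all tested miRNAs were called higher and 8.85% lower.

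Further falls belonged to smaller families. miR-103, from introns of the pantothenate kinase genes Pank2 and Pank3, fell by 1.02 (limma adjusted p = 0.0393), with 7.25 and 6.53 in the proliferative and 5.82 and 5.92 in the hypertrophic zone, and its near-copy miR-107 was at -0.85 without passing (adjusted p = 0.0755 by limma). miR-130a fell by 1.06 (limma adjusted p = 0.0425), beside -0.76 for miR-130b and -0.61 for miR-301a, which share its seed and did not pass. miR-196a, encoded within the Hox gene clusters that pattern the limbs and trunk, fell by 1.01 (limma adjusted p = 0.0316), and miR-196b was at -0.66. miR-210, which the hypoxia factor HIF induces, averaged 9.05 ± 0.07 in the proliferative and 8.11 ± 0.30 in the hypertrophic zone (SD, n = 2 each) and fell by 0.94 (limma adjusted p = 0.0393). Its proliferative arrays were closer together than those of any of the 19 other falls, and 7 of 23 other settings gave the same call. Without the second proliferative array its adjusted p was 0.0579. miR-675-3p, cut from the imprinted H19 RNA, was detected on both proliferative arrays and no hypertrophic array, at least 1.82-fold lower (limma adjusted p = 0.0393). Both hypertrophic arrays lie at the floor, as for miR-154, so the spread there is unmeasured and the p-value leaves it out.

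None of the 4 cartilage miRNAs miR-140, miR-140*, miR-455 and miR-455* passed. miR-140* stood at 12.80 and 12.03 in the proliferative and 11.24 and 11.62 in the hypertrophic zone (-0.98, SE 0.31, limma adjusted p = 0.0534), and miR-140 differed by -0.76 (SE 0.30, 0.13). For miR-455, from an intron of the collagen gene Col27a1, the means were 9.71 ± 0.004 and 8.94 ± 0.09 (SD, n = 2 each, -0.78, limma adjusted p = 0.0579), with the closest proliferative pair of these, while its other arm miR-455* was at 0.37 (-0.06 with normexp). For miR-140* and miR-140 the first proliferative array was the higher, at 12.80 and 11.28, against 12.03 and 10.57 on the second. Their differences are therefore larger without the second proliferative array and smaller without the first. The mesenchymal miRNAs miR-199b* (-0.92, limma adjusted p = 0.0513), miR-214 (-0.75), miR-199a-5p (-0.72) and miR-199a-3p (-0.62) were negative without passing. For each, both hypertrophic arrays lay below both proliferative arrays, which was also so for 27% of all tested miRNAs. The falls nearest the threshold were miR-199b*, let-7d, miR-140*, miR-483* (-0.80, limma adjusted p = 0.0534) and miR-221 (-0.86, 0.0534).

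Presence on one side only was rare. Detection on both hypertrophic and no proliferative array was found for 9 miRNAs, of which miR-181a, miR-181a-1* and miR-126-3p passed the test. The reverse was found for 4, of which miR-154 and miR-675-3p passed. By contrast, 25 of the 33 called miRNAs were well above background on all 4 arrays. Another probe of the same miRNA was detected on both arrays of an outer zone for 25 of the 33, and all 27 such probes differed in the direction of the call. These probes read the same RNA on the same arrays. Some, such as those of miR-126-3p and miR-329, were detected only in the brighter zone, which fixes their direction. Their shared direction is therefore no separate check of the calls.

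The number of falls moved with the arrays and the scaling used. The first proliferative array exceeded the second in 20 of 20 falls, 6 of 13 rises and 95 of 226 tested miRNAs, and the median gap between the proliferative arrays was 0.63 log2 units over the falls, against 0.13 between the hypertrophic arrays. For miR-154 and miR-675-3p the floor sets the hypertrophic gap. In 19 of the 20 the fall was larger in the run of the first proliferative array, the exception being miR-210. Since the zones overlap for none of the 33, their direction is the same in both runs by construction. Without the first proliferative array 13 miRNAs passed, 10 higher and 3 lower (miR-127, miR-329 and let-7e). Without the second, 45 passed, 12 higher and 33 lower. Only the proliferative zone lies in both slide rows, so a fit with the row as a block is that same fit and is no separate check. Without the first hypertrophic array 2 passed (miR-451 and miR-181a), and without the second 1 did (miR-451). When each array was set to the 75th percentile of all its probes, 10 miRNAs were called higher and 1 lower. Median scaling left 11 higher and 1 lower, quantile normalization 11 and 7, and unscaled signals 15 and 0. Of the called miRNAs, 32 of 33 kept their direction in every setting run, miR-675-3p being at 0 with a floor 2 times as high. The part of slide row or run in these differences was not tested.

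**Figure D4:**
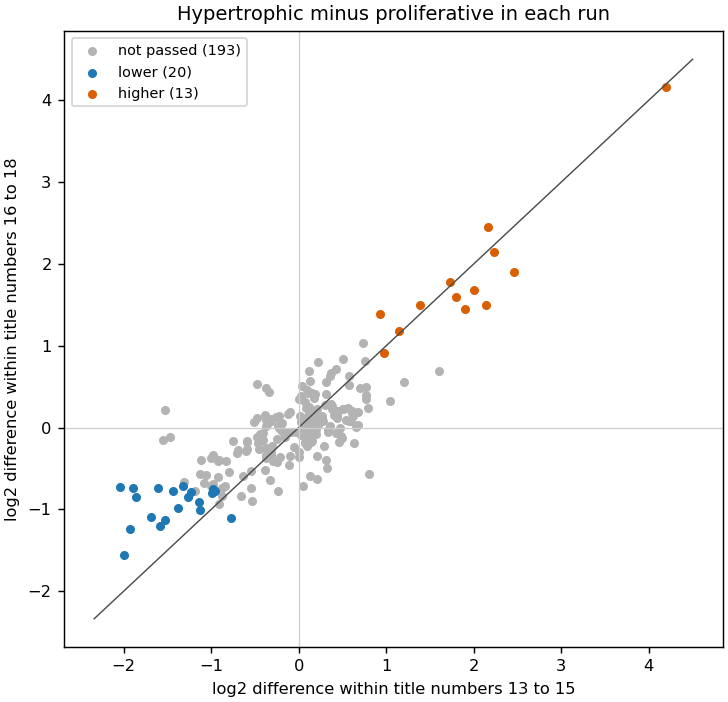
Log2 difference, hypertrophic minus proliferative, within title numbers 16 to 18 (vertical axis) against title numbers 13 to 15 (horizontal axis) for the 226 tested miRNAs, with a line of equality. The 33 called miRNAs have the same sign on both axes, as values without overlap must, and 19 of the 20 falls (blue) lie above the line, with a larger fall in numbers 13 to 15.

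**Figure D5:**
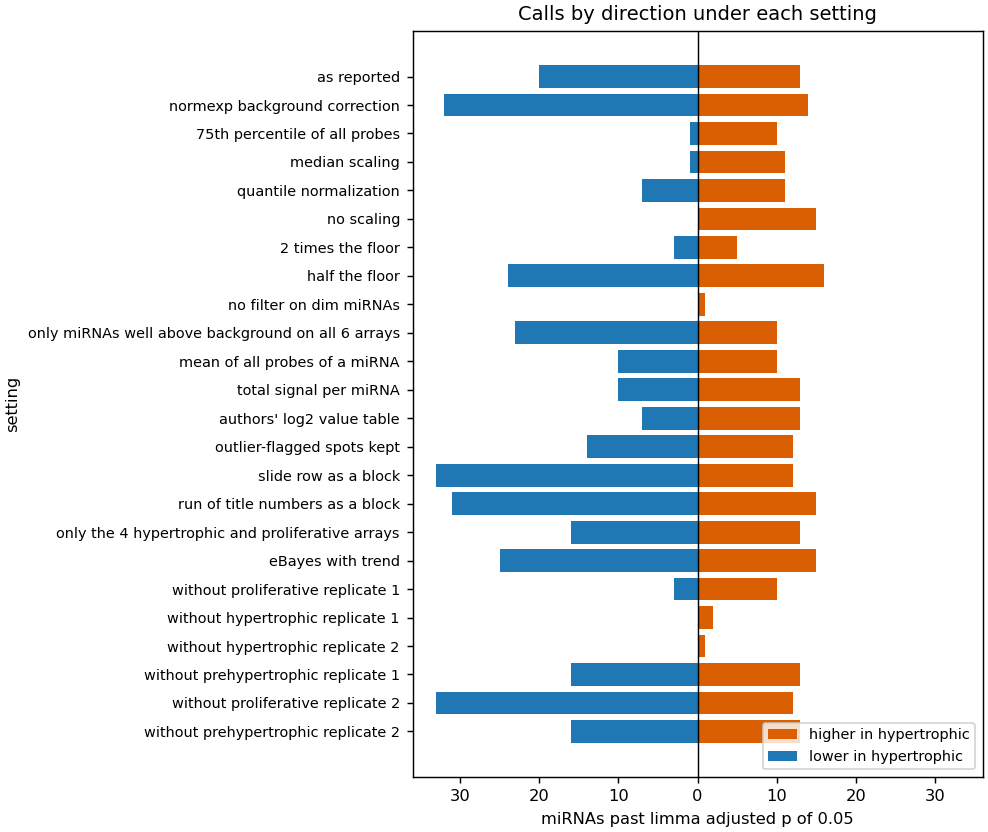
Number of miRNAs past a limma adjusted p of 0.05 that were higher (orange, to the right) or lower (blue, to the left) in the hypertrophic zone, under the reported setting (13 and 20) and each of 23 alternatives. Higher calls number 10 to 16 except with 2 times the floor, with no filter or with a hypertrophic array left out, while lower calls range from 0 to 33.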

How the data were processed

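In all, 6 arrays, 2 per zone, were read. Per the file headers, the authors processed the scans with Feature Extraction 10.7.3.1, analysed them in GeneSpring, per the labels, and deposited the spot intensity (processed signal, background-subtracted, linear) used here. The authors' deposited log2 value table matched log2 of the total signal per miRNA minus a constant for each array, within 1.28e-06, and served as an alternative.

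Control spots and spots marked as outliers (384 to 515 per array) were dropped, and no miRNA spot was saturated. Spots of each of 1928 probes were averaged. Scaling used an array's 75th percentile over the 342 probes well above background on all 6 arrays, followed by a floor of 12.84 scaled units and log2. The brightest of a miRNA's probes over all 6 arrays stood for it. limma 3.58.1 (R 4.3.3; lmFit, eBayes) fitted zone on all 6 arrays, with 3 residual and 7.83 prior degrees of freedom and Benjamini-Hochberg adjustment over 226 miRNAs. Normexp used the median spot signal with an offset of 50.

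All calls are named, as are up to 5 near misses per direction, and array values are given for the 10 rises and 10 falls of smallest p-value. Those of miR-193b and miR-103 were added after their values were seen. Both arms of miR-140 and miR-455, miR-322, miR-210, miR-451 and miR-126-3p are always named, and from each list up to 4 members may be. let-7f, let-7g, let-7i, miR-16, miR-125b-5p, miR-494 and any other name were chosen after their values were seen. Members and lists were chosen with earlier results of these data known. Array names were matched to RefSeq by identical name (60) or by arm and renaming (91), the latter from knowledge of miRBase and not checked against a release. The number of arrays limits the precision.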

Additional observations from a re-analysis of the deposited data

How the results depend on the processing

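The comparison gave 33 calls, 13 higher and 20 lower. With other scalings it gave 11 (10 higher, 1 lower) if all probes set the percentile, 12 (11 higher, 1 lower) with median scaling, 18 (11 higher, 7 lower) with quantile normalization and 15 (15 higher, 0 lower) without scaling. Relative to the values reported, the median of tested miRNAs shifted by 0.46 log2 units without scaling, 0.11 with median scaling and -0.17 with normexp. It shifted by less than 0.1 with the other changes to the signals. For settings that changed only the arrays, the miRNAs tested or the model, no shift was worked out. The count was 46 (14 higher, 32 lower) with normexp, 8 (5 higher, 3 lower) with 2 times the floor, 40 (16 higher, 24 lower) with 0.5 times the floor, 1 (1 higher, 0 lower) over all 690 miRNAs, of which 434 lay at the floor in both zones, 20 (10 higher, 10 lower) with the mean of a miRNA's probes, 23 (13 higher, 10 lower) with the total signal per miRNA and 20 (13 higher, 7 lower) with the authors' log2 table. With the slide row as a block it was 45 (12 higher, 33 lower), which is the fit without the second proliferative array, since that zone alone lies in both rows. It was 46 (15 higher, 31 lower) with the run of title numbers as a block. Leaving out 1 array gave 1 to 45 calls, 1 to 13 higher and 0 to 33 lower. The other alternatives gave 26 to 40 calls. By limma at an unadjusted p under 0.05, lower miRNAs numbered 4 without scaling and 28 without the filter, where none passed after adjustment, and 16 and 27 without the first and second hypertrophic array. The cause was not tested. The title numbers put 1 array of each zone in each run, but no label says that a run pairs the arrays. Of 751 repeats of single calls, 457 passed in the same direction and 294 did not pass. Among miRNAs that did not pass, signs turned with normexp for miR-223 (-0.0572), miR-455* (-0.0645), miR-15a (-0.0238), miR-181d (-0.0200), miR-322* (-0.0106) and miR-99b* (-0.0921), with the total signal per miRNA for miR-99b* (-0.00111) and miR-125a-3p (-0.242), for miR-125a-3p with the mean of its probes (-0.189) and the authors' table (-0.204), with median scaling for miR-16 (0.00836), and without scaling for miR-195 (0.0261), miR-365 (0.187), let-7i (0.10), miR-16 (0.377) and miR-125b-5p (0.245). On leaving out 1 array the range was -0.960 to 0.0498 for miR-195, -0.0310 to 0.395 for miR-181d, -0.766 to 0.00194 for let-7i, -0.166 to 0.320 for miR-99b*, -0.0103 to 0.203 for miR-125a-3p and -0.544 to 0.335 for miR-16.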

Other observations

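The clusters of miR-17 and its paralogues, which are linked to proliferation, held no call among 11 tested miRNAs, where 14.6% of all tested miRNAs were called and so few members allow no reading of a 0. Of the 11, 5 were positive and 6 negative. Their median was -0.07 log2 units, 0.05 with median scaling, 0.05 with quantile normalization and 0.41 without scaling. The clusters of miR-23, miR-27 and miR-24 held no call among 5 tested, with a median of -0.04, 0.07 with median scaling and 0.44 without scaling. Names whose sequences resemble pieces of tRNA spanned -0.06 to 0.33 over 4 tested, with no call. Among all 690 miRNAs, 14 were well above background on 1 hypertrophic and no proliferative array, and 8 on 1 proliferative and no hypertrophic array.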
